A study of Mus musculus with 6 samples.

Results

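The 10 genes followed here in whole mouse aortas are ones by which endothelial cells are commonly recognised: Pecam1, Cdh5, Kdr, Tek, Tie1, Eng, Vwf, Egfl7, Emcn and Ly6c1. They were taken by symbol from the rows of the 6 count files. All 10 had a row among 18749 gene rows, and all 10 were among the 14466 genes that passed the filter on low counts. Aortas came from 3 Apoe-/- mice that had received Apoe-/-Sept2C111A bone marrow (Sept2C111A recipients), and from 3 Apoe-/- mice that had received Apoe-/- bone marrow (control recipients). Every recipient lacked functional Apoe, the gene of a lipoprotein ligand, and every mouse was infused with angiotensin II (Ang II), a pressor peptide that provokes aneurysms in such mice, for 28 days. The series title ties the study to S-nitrosylated septin-2 in macrophages and to aortic aneurysm, so the comparison asks what the altered septin-2 of marrow-derived cells changes in the aortic wall. The altered allele was in the donor marrow as a whole, which also forms platelets, neutrophils and lymphocytes, and the labels name it only for the marrow, not for the recipients' own vessel wall. Counts per gene cannot show an altered residue, so the donor genotype was not checked here. The sources used here give no age, sex or conditioning before transplantation.

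Endothelial cells form the single-cell lining of every vessel, and an aorta holds both its own lining and that of the small vessels in its adventitia and surrounding fat. They are held together by adhesion molecules, read growth and quiescence cues through receptor tyrosine kinases, and store and secrete proteins that act on blood and on the matrix. In whole tissue these transcripts are a small share of the RNA. Fewer endothelial cells and less RNA per endothelial cell cannot be told apart in such samples.

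The libraries held 17082719 to 20494928 expected counts each, and the members 374 to 10523 expected counts per library. Levels are CPM, the share of a library's counts on a fixed common scale, computed on library sizes scaled by TMM, a method that centres the bulk of genes. Smooth muscle markers, which identify the main cell of the aortic wall, summed to 17956, 24419.5 and 16548 CPM in Sept2C111A recipients 1, 2 and 3, against 17655, 19349.8 and 6224 CPM in control recipients 1, 2 and 3. Control recipient 3 therefore stood apart, and it was also lowest for the summed adipocyte markers, with 1101 CPM against 2756 to 6219.7 CPM in the other 5 libraries. Control recipient 1 stood apart in neutrophil markers, which summed to 28.8, 16.7 and 20.0 CPM in Sept2C111A recipients, against 2918, 89.4 and 333 CPM in control recipients. The 10 endothelial genes together summed to 1629.8, 882 and 1684 CPM in Sept2C111A recipients, against 972, 904 and 1607 CPM in control recipients, so the groups overlapped.

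No member passed edgeR's quasi-likelihood test at a Benjamini-Hochberg adjusted p under 0.05, and neither did any of the 14466 genes tested (0%, smallest adjusted p 0.316). Vwf, Ly6c1, Tek and Pecam1, 4 of the 10 members, had a log2 fold change above 0 (Sept2C111A recipients over control recipients) and the other 6 had one below 0; with upper-quartile scaling Eng crossed 0 and the split was 5 and 5. The members' median was -0.07, beside 0.00 for all genes tested. These counts moved most with control recipient 3: without it 9 of 10 members lay above 0 and the median was 0.43. Without Sept2C111A recipient 2, 6 of 10 lay above 0 (median 0.10). With limma-voom, another fit to all 6 libraries, 7 of 10 did (median 0.22). At an unadjusted p under 0.05 edgeR gave 2 of 10 members, Vwf and Ly6c1, both higher, where 15.0% of all genes were past that mark, 6.17% higher and 8.83% lower. DESeq2, run as another test, called 1 of 10 members, Ly6c1, higher, where it called 3.87% of the 14718 genes with an adjusted p (0.985% higher and 2.89% lower). The 3 libraries of one group lay wholly beyond those of the other for 1 member, Ly6c1, against 23.1% of all genes (11.2% higher, 11.9% lower).

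**Figure D1:**
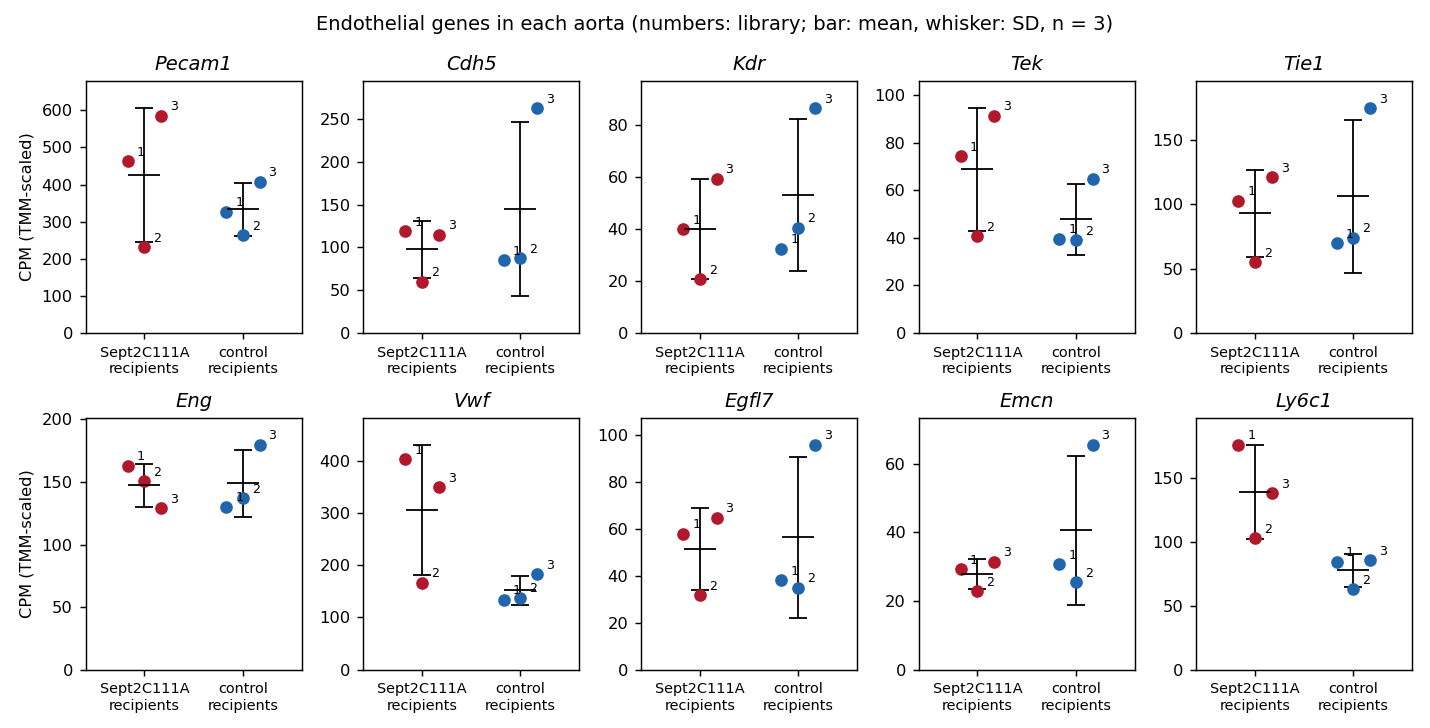
Level of each endothelial gene in CPM (linear axes from 0) in the aortas of 3 Sept2C111A recipients (red) and 3 control recipients (blue). Points are libraries with their number, horizontal bars are means and whiskers are SD. Ly6c1 is the member whose groups do not overlap, and control recipient 3 is the highest library for 6 members.

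Pecam1 and Cdh5 encode adhesion molecules of the endothelial junction. Pecam1 (chromosome 11, 106654217 to 106750628, minus strand, mm10), an immunoglobulin-family adhesion molecule that platelets and many leukocytes also carry, stood at 463, 231 and 585 CPM in Sept2C111A recipients, against 327, 264 and 408 CPM in control recipients. The groups overlapped, with recipient 2 of the Sept2C111A group lowest of all 6. It averaged 427 ± 180.0 CPM in Sept2C111A recipients and 333 ± 72.0 CPM in control recipients (SD, n = 3 each), and its log2 fold change was 0.36 (SE 0.36, edgeR adjusted p = 0.631). Cdh5 (chromosome 8, 104101625 to 104144511, plus strand), the VE-cadherin that joins neighbouring endothelial cells, stood at 119, 59.8 and 115 CPM in Sept2C111A recipients, against 84.8, 87.8 and 263 CPM in control recipients. Control recipient 3 was the highest of the 6, and the remaining 5 libraries were interleaved. The log2 fold change of Cdh5 was -0.57 (SE 0.52, edgeR adjusted p = 0.587), and without control recipient 3 it was 0.18.

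Kdr, Tie1 and Tek are receptor tyrosine kinases. Kdr (chromosome 5, 75932827 to 75978458, minus strand), the main signalling receptor for VEGF-A, stood at 40.0, 20.7 and 59.4 CPM in Sept2C111A recipients, against 32.4, 40.5 and 86.6 CPM in control recipients; the log2 fold change was -0.41 (SE 0.50, edgeR adjusted p = 0.684). Tie1 (chromosome 4, 118471191 to 118490061, minus strand), an orphan-like receptor that modulates Tek, stood at 103, 55.0 and 121 CPM in Sept2C111A recipients, against 69.9, 74.3 and 175 CPM in control recipients; the log2 fold change was -0.19 (SE 0.45, edgeR adjusted p = 0.845). In both genes the lowest value belonged to Sept2C111A recipient 2 and the highest to control recipient 3. Without control recipient 3 the log2 fold changes were 0.13 for Kdr and 0.37 for Tie1, and Tie1 also changed sign without Sept2C111A recipient 2, to 0.08. Tek (chromosome 4, 94739289 to 94874976, plus strand), the angiopoietin receptor TIE2, had another order, with 74.3, 40.8 and 91.5 CPM in Sept2C111A recipients against 39.6, 39.0 and 65.0 CPM in control recipients. Each Sept2C111A library exceeded control recipients 1 and 2, while control recipient 3 lay among the Sept2C111A libraries, and the log2 fold change was 0.53 (SE 0.35, edgeR adjusted p = 0.465).

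Eng (chromosome 2, 32646595 to 32682669, plus strand), the endoglin co-receptor for BMP9, BMP10 and TGF-beta, varied over a narrower range on the log scale than the other members. It stood at 163, 150.5 and 129 CPM in Sept2C111A recipients, against 130.4, 137 and 179.8 CPM in control recipients. The ranges overlapped, and the means were 148 ± 17.3 CPM in Sept2C111A recipients and 149 ± 26.7 CPM in control recipients (SD, n = 3 each). The log2 fold change was -0.01 (SE 0.18, edgeR adjusted p = 0.975). Its sign depended on single libraries and on scaling: it was 0.02 with upper-quartile factors, 0.14 without control recipient 3 and 0.09 without Sept2C111A recipient 3.

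Vwf and Egfl7 are secreted. Vwf (chromosome 6, 125546774 to 125686679, plus strand), the von Willebrand factor that endothelial cells store in Weibel-Palade bodies and that tethers platelets, stood at 403, 166 and 349 CPM in Sept2C111A recipients, against 134, 138 and 183 CPM in control recipients. Sept2C111A recipients 1 and 3 lay above every control library, while recipient 2 lay below control recipient 3. The fold was 2.02 (log2 fold change 1.01, SE 0.35), with an unadjusted edgeR p of 0.0245, an edgeR adjusted p of 0.316 and a DESeq2 adjusted p of 0.0952. DESeq2 called Vwf higher only in the fit without Sept2C111A recipient 2 (adjusted p = 7.95e-05), among the 6 that each left out 1 library. Egfl7 (chromosome 2, 26580014 to 26593120, plus strand), an endothelial protein deposited in the matrix whose gene hosts miR-126, stood at 58.0, 31.8 and 64.8 CPM in Sept2C111A recipients, against 38.3, 35.0 and 96.0 CPM in control recipients. The groups overlapped, and the log2 fold change was -0.13 (SE 0.46, edgeR adjusted p = 0.899), which was 0.49 without control recipient 3 and 0.12 without Sept2C111A recipient 2. Of the 50-base windows of the Egfl7 transcript, 9.54% also occurred in Gm20532, a gene annotated across it on the same strand, so reads there could have been divided between the pair.

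Megakaryocytes and platelets also make Vwf, so their markers are given beside it. None of the 12 tested megakaryocyte and platelet markers had a log2 fold change above 0, and their median was -2.10. DESeq2 called 7 of them lower, where it called 2.89% of all genes with an adjusted p lower. The 13 markers of that list summed to 205, 263 and 150.5 CPM in Sept2C111A recipients, against 562, 256 and 358 CPM in control recipients, with overlap. Of these sums, Itgb3 alone held 152, 203 and 95.2 CPM in Sept2C111A recipients and 172, 142 and 163 CPM in control recipients (log2 fold change -0.09, SE 0.28). Pf4, the platelet factor 4 of alpha granules, stood at 28.3, 40.3 and 34.3 CPM in Sept2C111A recipients, against 128, 75.2 and 102 CPM in control recipients. What megakaryocytes and platelets contributed to the Vwf levels was not tested. Adipocyte markers, which come with vessel-rich fat, summed to 6219.7, 2756 and 5344 CPM in Sept2C111A recipients, against 3775, 2844 and 1101 CPM in control recipients. Sept2C111A recipients 1 and 3 were thus highest in both Vwf and adipocyte markers, and the part of fat in the Vwf result was not tested.

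Emcn and Ly6c1 encode surface glycoproteins. Emcn (chromosome 3, 137341067 to 137432185, plus strand), the endomucin of capillary and venous endothelium, stood at 29.3, 22.9 and 31.4 CPM in Sept2C111A recipients, against 30.8, 25.5 and 65.5 CPM in control recipients. Apart from control recipient 3 the libraries lay close together, and the log2 fold change was -0.54 (SE 0.37, edgeR adjusted p = 0.477), or -0.01 without it. Ly6c1 (chromosome 15, 75044018 to 75048830, minus strand), a lipid-anchored Ly6 protein of mouse endothelium that some lymphocytes also carry, stood at 176, 103 and 138 CPM in Sept2C111A recipients, against 84.6, 62.9 and 85.5 CPM in control recipients. All 3 Sept2C111A libraries lay above all 3 control libraries. The means were 139 ± 36.6 CPM in Sept2C111A recipients and 77.7 ± 12.8 CPM in control recipients (SD, n = 3 each), a fold of 1.79 (log2 fold change 0.84, SE 0.23). The unadjusted edgeR p was 0.0104 and the edgeR adjusted p 0.316, against a DESeq2 adjusted p of 0.0478. DESeq2 lost that call without any one of control recipients 1, 2 and 3 (adjusted p = 0.102, 0.0998 and 0.083) or Sept2C111A recipients 1 and 3 (0.298 and 0.305), and kept it without Sept2C111A recipient 2 (0.00767). The log2 fold change of Ly6c1 lay between 0.64 and 1.02 in the 6 edgeR fits that left out a library.

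Ly6c1 has a close neighbour, Ly6c2 (chromosome 15, 75108158 to 75111970, minus strand), the Ly6C antigen of inflammatory monocytes, and the counting program divides reads that match both. The first 150 coding bases of each gene are shown because they carry 6 of the 9 differences among the 393 coding bases compared (97.7% identity). They were read from GENCODE transcripts of mm10, 5′ to 3′, with differing bases in capitals.
Ly6c1: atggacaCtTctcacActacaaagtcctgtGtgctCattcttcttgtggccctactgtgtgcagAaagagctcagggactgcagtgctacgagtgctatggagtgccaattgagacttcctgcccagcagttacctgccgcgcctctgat
Ly6c2: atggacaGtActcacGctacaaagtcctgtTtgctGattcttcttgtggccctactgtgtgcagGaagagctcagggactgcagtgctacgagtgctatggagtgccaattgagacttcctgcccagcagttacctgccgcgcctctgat
Of the 50-base windows along the Ly6c1 transcript, 22.0% were also found in Ly6c2. Ly6c2 itself stood at 1.82, 0.280 and 1.38 CPM in Sept2C111A recipients, against 8.98, 0.419 and 1.94 CPM in control recipients. The sum of both genes was 178, 103 and 139 CPM in Sept2C111A recipients, against 93.6, 63.3 and 87.5 CPM in control recipients, so the groups did not overlap in the sum of the pair either. T cell and B cell markers, from lymphocytes that can carry Ly6c1, summed to 21.2, 5.19 and 9.18 CPM in Sept2C111A recipients, against 29.3, 12.6 and 17.2 CPM in control recipients.

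Levels between genes were compared per kilobase of the transcript with the longest coding sequence. Other lengths could change the order. Pecam1 was divided by 2977 bases and Eng by 3422, while all their annotated exons cover 6228 and 4048. Ly6c1 and Pecam1 led in both groups. In Sept2C111A recipients they averaged 177 ± 46.6 and 143 ± 60.5 CPM per kilobase, and in control recipients 99.1 ± 16.4 and 112 ± 24.2 CPM per kilobase (SD, n = 3 each). The libraries of both these genes lay above those of Eng, which came next in either group at 43.2 ± 5.05 CPM per kilobase in Sept2C111A recipients and 43.6 ± 7.81 in control recipients. Below Eng came Egfl7, Vwf, Cdh5, Tie1, Tek, Emcn and Kdr in Sept2C111A recipients, and Egfl7, Cdh5, Tie1, Vwf, Emcn, Tek and Kdr in control recipients. From Eng downwards the libraries of every pair of neighbours overlapped in both groups, so these ranks are not separated by the spread. Kdr was last, at 6.76 ± 3.27 CPM per kilobase in Sept2C111A recipients and 8.98 ± 4.94 in control recipients.

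**Figure D2:**
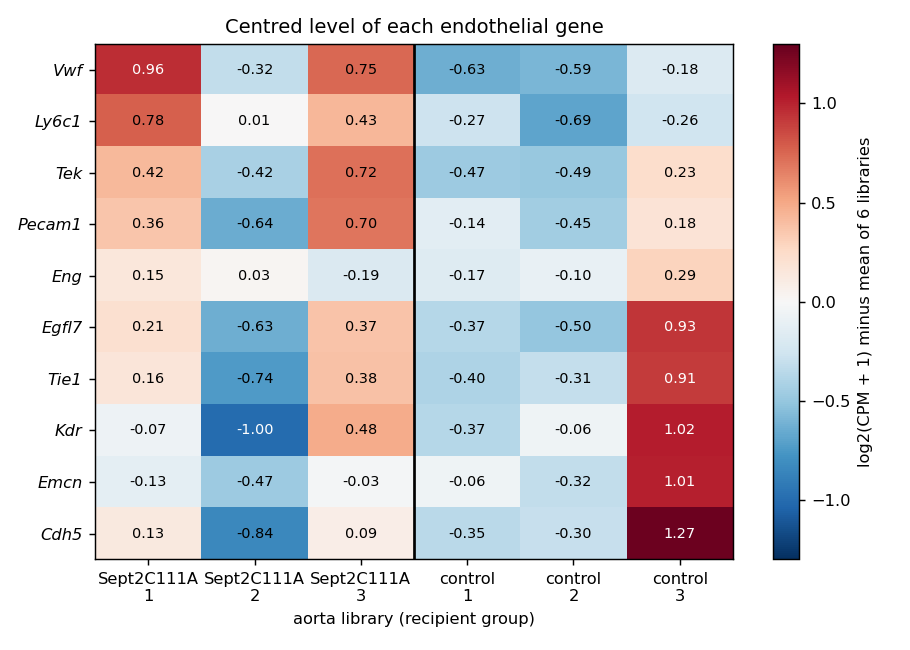
Log2(CPM + 1) of each endothelial gene minus its mean over the 6 libraries, with Sept2C111A recipients left of the black line and control recipients right of it, and genes ordered by log2 fold change. Control recipient 3 is highest for the lower 6 genes, and Sept2C111A recipient 2 is lowest for Pecam1, Egfl7, Tie1, Kdr, Emcn and Cdh5.

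Part of the variation was shared by several members and lay within the groups. Centred log2(CPM + 1), averaged over the 10 members, was 0.30, -0.50 and 0.37 in Sept2C111A recipients 1, 2 and 3, against -0.32, -0.38 and 0.54 in control recipients 1, 2 and 3. Root-mean-square differences of single members from this mean profile ran from 0.180 for Egfl7 to 0.453 for Ly6c1 and 0.458 for Vwf. The mean profile itself had a root-mean-square of 0.412, so Vwf and Ly6c1 differed from it by more than that. Sept2C111A recipient 2 was the lowest library for 6 members, and control recipient 3 the highest for 6. Control recipient 3, highest in the mean of the endothelial genes, was the library with the lowest adipocyte and smooth muscle sums, while Sept2C111A recipient 2, lowest in that mean, had the lowest adipocyte sum and the highest smooth muscle sum of its group. Monocyte and macrophage markers summed to 3211, 2292 and 2140.4 CPM in Sept2C111A recipients, against 3492, 3306 and 4373 CPM in control recipients, and control recipient 3 was highest there too. What these marker sums contributed to the endothelial levels was not tested.

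**Figure D3:**
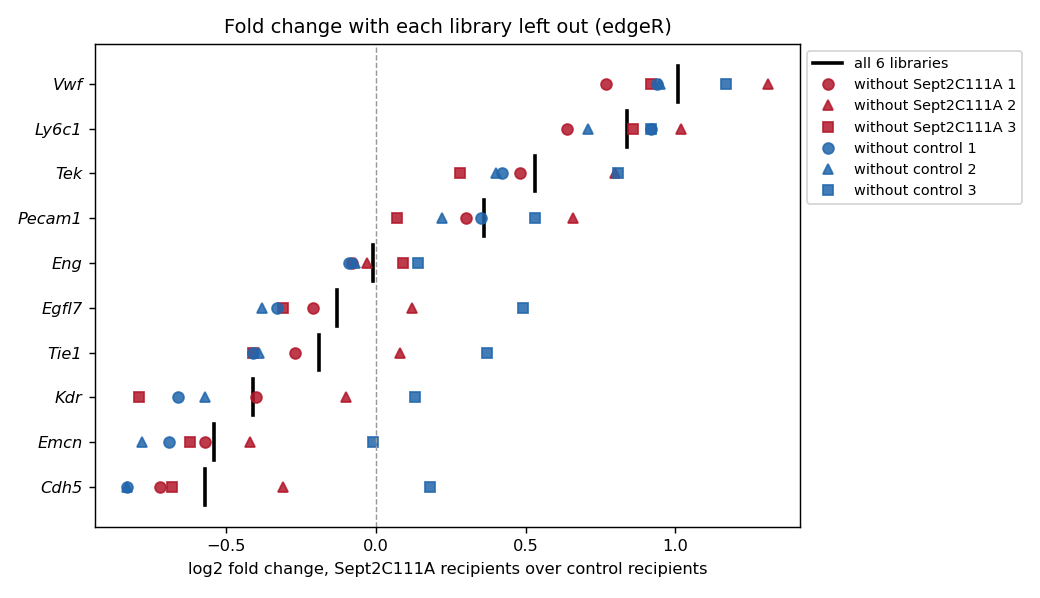
Log2 fold change of each endothelial gene (edgeR, Sept2C111A recipients over control recipients) with all 6 libraries (black bars) and with each library left out in turn (red, a Sept2C111A recipient; blue, a control recipient). Leaving out control recipient 3 moves Cdh5, Kdr, Tie1, Egfl7 and Eng from below 0 to above 0, while Vwf, Ly6c1, Tek and Pecam1 are above 0 in every fit.

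Ratios of CPM between members within a library do not depend on library size. Overlap was judged on differences of log2(CPM + 1), for member pairs and for all pairs, where the added 1 matters for low-count genes. Of the 45 member pairs, 18 had ratios that did not overlap between groups, against 23.4% of all pairs of tested genes; pairs share genes, so this is a description. Vwf took part in 8 of the 18, Tek in 6 and Cdh5 in 5, and the ratios named here were chosen after their values were seen. Cdh5 over Vwf was 0.294, 0.359 and 0.329 in Sept2C111A recipients, against 0.634, 0.638 and 1.43 in control recipients. Vwf over Emcn was 13.8, 7.26 and 11.1 in Sept2C111A recipients, against 4.35, 5.40 and 2.80 in control recipients. Tek over its partner receptor Tie1 was 0.718, 0.742 and 0.758 in Sept2C111A recipients, against 0.566, 0.524 and 0.372 in control recipients. Other ratios did not follow the groups: Pecam1 over Eng was 2.83, 1.54 and 4.53 in Sept2C111A recipients, against 2.51, 1.92 and 2.27 in control recipients. Vwf over Ly6c1 was the one ratio with Vwf that overlapped, at 2.29, 1.61 and 2.53 in Sept2C111A recipients against 1.58, 2.19 and 2.14 in control recipients.

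**Figure D4:**
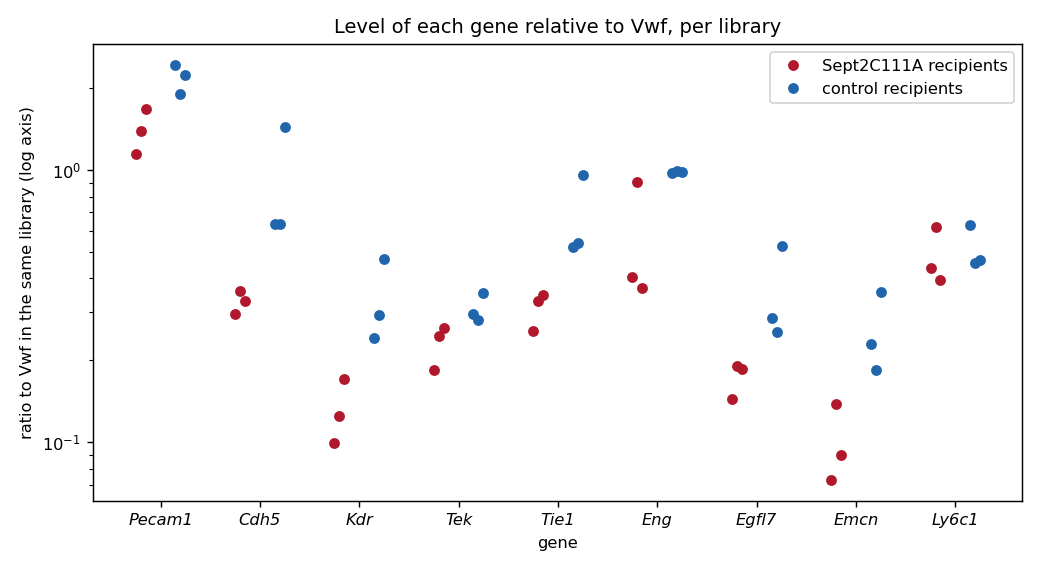
CPM of each endothelial gene divided by the CPM of Vwf in the same library, on a log axis, for 3 Sept2C111A recipients (red, left in each pair) and 3 control recipients (blue, right). For each gene but Ly6c1 the Sept2C111A ratios lie below the control ratios, as in Cdh5, at 0.294 to 0.359 in Sept2C111A recipients against 0.634 to 1.43 in control recipients.

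The genes whose profile over the 6 libraries was most like the members' mean profile were Esam, Sigirr, Sema6a, Reps2 and Kif26a, with root-mean-square differences of 0.0490, 0.0514, 0.0873, 0.110 and 0.124 in centred log2(CPM + 1). They were the nearest of 11834 genes with a mean of at least 5 CPM, over 6 libraries, and the members' own profile had a root-mean-square of 0.412. Esam, an immunoglobulin-family protein of endothelial tight junctions, stood at 67.7, 36.4 and 68.0 CPM in Sept2C111A recipients, against 45.2, 40.6 and 82.5 CPM in control recipients. These genes were chosen for likeness to the members' mean profile. The low Sept2C111A recipient 2 and the high control recipient 3 in Esam therefore follow from the choice.

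Upstream sequence is shown for 2 members with different profiles, Tek and Emcn, as the 250 bases before the RefSeq start (GRCm38.p6, plus strand, 5′ to 3′). Tek is at chr4:94739039-94739288 and Emcn at chr3:137340828-137341077. Capitals mark AGGAAG or its reverse complement CTTCCT, a longer form of the GGAA core that many ETS factors bind.
Tek: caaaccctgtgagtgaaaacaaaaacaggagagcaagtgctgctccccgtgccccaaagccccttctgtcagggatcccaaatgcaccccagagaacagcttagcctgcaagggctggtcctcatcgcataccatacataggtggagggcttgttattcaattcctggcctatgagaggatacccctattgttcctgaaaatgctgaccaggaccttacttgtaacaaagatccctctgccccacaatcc
Emcn: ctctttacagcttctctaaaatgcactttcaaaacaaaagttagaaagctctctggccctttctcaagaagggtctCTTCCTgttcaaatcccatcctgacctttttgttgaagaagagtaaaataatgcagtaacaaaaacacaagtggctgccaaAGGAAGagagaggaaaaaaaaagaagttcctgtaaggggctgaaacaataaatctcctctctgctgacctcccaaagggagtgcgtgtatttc
The Tek window holds neither form and the Emcn window holds both. Only this longer form was searched, on both strands, and the shorter GGAA core was not. Windows were at hand for 7 of the 10 members, and these had 10 windows, since some have several starts whose windows can overlap. Of the 10 windows, 6, from 5 members, held AGGAAG or CTTCCT, beside 29.5% of 32851 windows of the same length. These members were Egfl7, Eng, Emcn, Tie1 and Ly6c1, while Tek and Kdr had 0 matches. Kdr, like Emcn, was lowest in Sept2C111A recipient 2 and highest in control recipient 3, so the letters did not follow the profiles. The GATA letters AGATAA were in no member's window, beside 9.99% of all windows. The SOX letters ACAAAG were in 4 of the 10 windows, beside 16.5% of all windows. The SP and KLF letters GGGCGG were in 2 of the 10, beside 32.7%. With 10 windows these shares are coarse. These matches describe letters and not binding.

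Other genes of endothelial biology were taken as 12 lists with 166 entries, of which 158 were tested. Of these 158, 82 had a log2 fold change above 0 and 76 below, with a median of 0.03, and edgeR called 0 at an adjusted p under 0.05. At an unadjusted p under 0.05 edgeR gave 19 higher and 11 lower, 19.0% of the 158, beside 15.0% of all genes. The groups did not overlap for 17.1% of the 158 (16 higher and 11 lower), beside 23.1% of all genes. DESeq2 called 3 higher, Jam2, Cd34 and Timp4, and 1 lower, Tspan8, beside 3.87% of all genes; Jam2, Timp4 and Tspan8 are named because they were called.

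**Figure D5:**
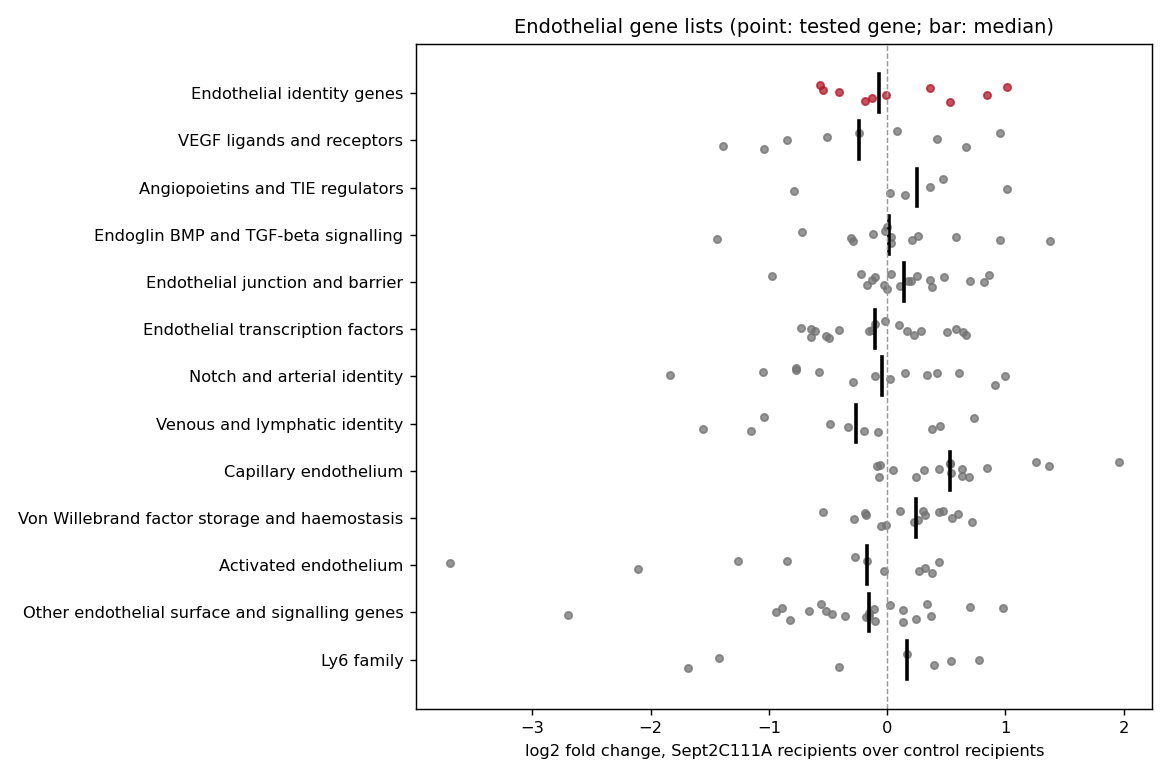
Log2 fold change (edgeR, Sept2C111A recipients over control recipients) of each tested gene in the endothelial identity genes (red) and in 12 other endothelial lists (grey), with the list's median as a black bar. With all 6 libraries the median of the capillary list is 0.53 and that of the identity genes -0.07; the order of the lists changed between fits (without control recipient 3, 0.54 for the capillary list and 0.74 for the angiopoietin list).

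For the receptor kinases, the ligands and partners gave no adjusted call. Of 9 VEGF ligands and receptors, edgeR gave 2 higher and 1 lower at an unadjusted p under 0.05 (33.3%, beside 15.0% of all genes), with a median of -0.24. Without control recipient 1 it gave 0 higher and 1 lower, and without control recipient 3 it gave 1 higher and 0 lower. Without Sept2C111A recipient 1 or 3 it gave 0 in either direction. How many of all genes were past that mark also changed between fits, so these counts are not particular to the list. Vegfa, the ligand of Kdr, stood at 129.8, 68.4 and 162 CPM in Sept2C111A recipients, against 313, 95.3 and 105 CPM in control recipients, and Flt1, a VEGF receptor that acts mostly as a trap, at 56.2, 52.0 and 75.6 CPM in Sept2C111A recipients against 65.9, 56.9 and 94.7 CPM in control recipients. Without control recipient 1 the log2 fold change of Vegfa was 0.27, against -0.51 with all libraries. Nrp1, a VEGF co-receptor, was at 215 CPM or more in Sept2C111A recipients and at 148, 188 and 186 CPM in control recipients, without overlap (log2 fold change 0.42, SE 0.15, edgeR adjusted p = 0.316). Nrp2, a co-receptor of veins and lymphatics, had the opposite order, at 40.5, 27.9 and 42.9 CPM in Sept2C111A recipients and 47.5, 62.9 and 182 CPM in control recipients (log2 fold change -1.39, SE 0.52, edgeR adjusted p = 0.321), and without control recipient 3 it was at -0.57. None of the 6 angiopoietins and TIE regulators was past an unadjusted p of 0.05. Angpt1, which activates Tek, stood at 9.40, 6.63 and 14.2 CPM in Sept2C111A recipients, against 4.86, 7.15 and 40.1 CPM in control recipients. Its antagonist in many settings, Angpt2, stood at 59.1, 87.8 and 63.8 CPM in Sept2C111A recipients against 28.7, 56.2 and 122 CPM in control recipients. Control recipient 3 was highest in both, and without it the log2 fold change of Angpt1 was 0.75, against -0.79 with all libraries. Ptprb, the phosphatase that restrains Tek, differed by 0.47 (SE 0.36) in log2 fold change.

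Of the 14 genes of endoglin, BMP and TGF-beta signalling, 7 lay above 0 and 7 below, with a median of 0.01. Acvrl1, the receptor ALK1 that works with endoglin, differed by 0.26 (SE 0.17) in log2 fold change, and Bmpr2, its type II partner, by 0.03 (SE 0.11). The TGF-beta receptors Tgfbr2 and Tgfbr1 and the BMP target Id3 lay within 1 SE of 0. In the junction list, 11 of 18 lay above 0 (median 0.15), against 17 without control recipient 3 (median 0.29), 8 without control recipient 1 (median -0.07) and 7 without Sept2C111A recipient 3 (median -0.05). Cd34, a sialomucin of capillary endothelium that adventitial fibroblasts and progenitors also carry, stood at 383, 394 and 412 CPM in Sept2C111A recipients, against 192, 269 and 215 CPM in control recipients, without overlap (log2 fold change 0.82, SE 0.18, edgeR adjusted p = 0.316, DESeq2 adjusted p = 0.00179). Jam2, a junctional adhesion molecule, stood at 80.3, 79.8 and 100.4 CPM in Sept2C111A recipients against 51.8, 58.5 and 50.1 CPM in control recipients (DESeq2 adjusted p = 0.00438). Of the 6 DESeq2 fits that left out a library, Cd34 and Jam2 lost the call in the one without Sept2C111A recipient 3 (adjusted p = 0.0833 and 0.0623). Fibroblast markers moved with them: they summed to 7932, 7233 and 9088 CPM in Sept2C111A recipients and 4039.5, 5145 and 5225 CPM in control recipients, 9 of 10 lay above 0, and their part in the Cd34 and Jam2 results was not tested. Cldn5, a tight junction claudin of endothelium, and Icam2, an endothelial adhesion ligand, overlapped between groups, and the sign of each depended on single libraries. Cldn5 was at 0.18 in log2 fold change with all libraries, and at -0.15, -0.01 and -0.07 without control recipient 1, control recipient 2 or Sept2C111A recipient 3. Icam2 was at 0.25 with all libraries and at -0.02 without Sept2C111A recipient 3.

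Of 19 endothelial transcription factors tested, 8 lay above 0 and 11 below, with a median of -0.10, against 12 above 0 and a median of 0.34 without control recipient 3. The ETS factor Erg, which maintains endothelial identity, stood at 77.7, 90.7 and 70.1 CPM in Sept2C111A recipients, against 41.9, 78.5 and 83.6 CPM in control recipients, and its log2 fold change of 0.23 was -0.02 without control recipient 1. Fli1, an ETS factor of endothelium that megakaryocytes and leukocytes share, lay lower without overlap, at 23.4, 19.2 and 23.9 CPM in Sept2C111A recipients and 45.2, 25.4 and 33.2 CPM in control recipients (log2 fold change -0.64, SE 0.23, edgeR adjusted p = 0.316). The platelet marker sums above were also lower in Sept2C111A recipients than in control recipients 1 and 3, and what they contributed to Fli1 was not tested. Klf2, a factor induced by laminar flow, differed by 0.58 (SE 0.45) in log2 fold change, and Sox17, an arterial factor, by 0.29 (SE 0.53). In the Notch and arterial list, 7 of 14 lay above 0 (median -0.04), against 12 without control recipient 3 (median 0.41) and 4 without Sept2C111A recipient 1 (median -0.14). Dll4, an arterial Notch ligand, stood at 11.7, 6.19 and 10.2 CPM in Sept2C111A recipients, against 7.20, 7.36 and 43.5 CPM in control recipients; its log2 fold change of -1.05 (SE 0.76) was 0.36 without control recipient 3. In the venous and lymphatic list, 3 of 10 lay above 0 with a median of -0.26, against 8 of 10 and 0.35 without control recipient 3. Pdpn, the podoplanin of lymphatic endothelium that fibroblasts and macrophages can also make, stood at 41.8, 44.7 and 24.2 CPM in Sept2C111A recipients and at 186, 44.8 and 96.1 CPM in control recipients. Sept2C111A recipient 2 and control recipient 2 were nearly equal, and its log2 fold change was -1.56 (SE 0.53, edgeR adjusted p = 0.316), or -0.92 without control recipient 1. In the other direction lay Nr2f2, the venous factor COUP-TFII that fibroblasts also use, at 124, 107 and 86.1 CPM in Sept2C111A recipients and 49.8, 68.8 and 72.5 CPM in control recipients (log2 fold change 0.73, SE 0.20, edgeR adjusted p = 0.316).

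Of the 17 genes of the capillary list, 14 lay above 0, with a median of 0.53, and edgeR gave 6 higher and 0 lower at an unadjusted p under 0.05, 35.3% of the list beside 15.0% of all genes (6.17% higher). Without control recipient 3, 16 of 17 lay above 0 and 4 were higher at that mark; the fit without Sept2C111A recipient 3 gave the lowest median, 0.21, when single libraries were omitted. At that mark 3 were higher without control recipient 1, Sept2C111A recipient 1 or Sept2C111A recipient 3. The count of all genes past that mark also changed between these fits, so the list's counts alone show no change particular to it. Fabp4, a fatty acid carrier of capillary endothelium and of adipocytes, stood at 2100.2, 1111 and 2055 CPM in Sept2C111A recipients, against 1882, 972 and 552 CPM in control recipients, with overlap. Cav1, the caveolae protein, did not overlap, at 637, 768 and 665 CPM in Sept2C111A recipients and 489, 558 and 287 CPM in control recipients (log2 fold change 0.63, SE 0.28, edgeR adjusted p = 0.349). Timp4, an inhibitor of metalloproteinases found in microvessels and fat, stood at 14.4, 9.12 and 20.3 CPM in Sept2C111A recipients, against 5.36, 6.73 and 6.23 CPM in control recipients (DESeq2 adjusted p = 0.0195). DESeq2 lost that call without control recipients 1 or 3 (adjusted p = 0.108 and 0.0830) or Sept2C111A recipients 1 or 3 (0.155 and 0.225). Gpihbp1, which carries lipoprotein lipase across capillaries, overlapped at 13.0, 6.69 and 23.9 CPM in Sept2C111A recipients against 5.08, 7.62 and 17.4 CPM in control recipients, and its log2 fold change of 0.54 was -0.01 without Sept2C111A recipient 3. Several of these genes are also made by adipocytes, whose 11 markers all lay above 0 with a median of 1.02, and the part of fat in the list was not tested.

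Of 16 tested genes of Vwf storage and of haemostasis, 10 lay above 0, with a median of 0.24. At an unadjusted edgeR p under 0.05 there were 2 (12.5%, beside 15.0% of all genes). Selp, the P-selectin that shares the Weibel-Palade body with Vwf, stood at 65.9, 30.8 and 51.2 CPM in Sept2C111A recipients, against 55.5, 26.9 and 26.3 CPM in control recipients. Nos3, the endothelial nitric oxide synthase, stood at 88.8, 36.7 and 106 CPM in Sept2C111A recipients, against 63.0, 49.2 and 80.8 CPM in control recipients, a log2 fold change of 0.26 that was -0.02 without Sept2C111A recipient 3. Among 11 tested genes of activated endothelium, 4 lay above 0 and 0 were higher at an unadjusted p under 0.05, against 3 lower (27.3%, beside 15.0% of all genes). Without control recipient 1 the counts at that mark were 3 higher and 2 lower. Without control recipient 3 they were 0 higher and 1 lower, with 6 of 11 above 0. As above, the count of all genes past that mark changed between fits too. The adhesion molecule Vcam1 differed by -0.17 (SE 0.20) in log2 fold change, or 0.06 without control recipient 3. Lox, a collagen cross-linking enzyme that mesenchymal cells also make, lay lower, at 534, 939.9 and 348 CPM in Sept2C111A recipients and 1539, 1019 and 1811 CPM in control recipients (log2 fold change -1.26, SE 0.43, edgeR adjusted p = 0.316). Among 22 other endothelial genes, 8 lay above 0 with a median of -0.15, against 18 and 0.44 without control recipient 3. Tspan8, a tetraspanin of this list, was at 0.368, 0.221 and 0.278 CPM in Sept2C111A recipients and 2.01, 0.684 and 3.07 CPM in control recipients (DESeq2 adjusted p = 0.0199), a call that was kept only without control recipient 2 (0.000171) and otherwise ranged from 0.0779 to 0.197. Plvap, the diaphragm protein of fenestrated endothelium, stood at 95.4, 41.9 and 87.3 CPM in Sept2C111A recipients, against 40.4, 62.9 and 135 CPM in control recipients; its log2 fold change of -0.09 was 0.54 without control recipient 3. Of the 7 tested Ly6 genes other than Ly6c1, 4 lay above 0, against 7 of the 8 tested without control recipient 1. Ly6a, the Sca-1 antigen of endothelium and adventitial progenitors, stood at 436, 321 and 299.6 CPM in Sept2C111A recipients, against 334, 199 and 265 CPM in control recipients.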

How the data were processed

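RNA from 6 whole aortas was captured on oligo(dT) beads, per the labels' protocols, and sequenced. The authors deposited 1 file per library with expected counts per gene, not normalised; their fractional values divide reads that match several genes. Per the submitters' processing notes, the tools were Bowtie2 and RSEM 1.3.1, with DESeq2 1.4.5, on build mm10. The sources used here state no read filter, annotation or strand setting, so antisense overlaps cannot be told apart. The column heading of 1 Sept2C111A file names another library number than GEO's record of the sample, and GEO's record was followed.

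Expected counts were rounded. The filter was filterByExpr (minimum count 10), and TMM set the library sizes. The two-sided quasi-likelihood F test of edgeR 4.0.16 (R 4.3.3) compared the groups without covariates, with p-values adjusted by Benjamini-Hochberg over 14466 genes. DESeq2 1.42.0 and limma 3.58.1 (voom with quality weights) were alternatives, as were other scalings, filters and leaving out each library. The fit was also run on simulated counts in which no library stood apart, so that run does not show how it performs on these aortas. Log2 fold changes are Sept2C111A recipients over control recipients, and log2(CPM + 1) was used for profiles. Nothing in the labels says how samples were batched; the design gives 3 mice per group. Library totals ran from 17082719 to 20494928, and the spread between animals limits precision.

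Members and gene lists were chosen with earlier results of these data known. Genes named from the lists are the 3 of highest mean CPM in each list, any passing edgeR, and a set chosen by role. Not all genes of this rule are described in the Results: Elk3, Mcam, Heg1, Heyl and Cd36 are among those left out. Others named were chosen after their values were seen. Coordinates are from GENCODE vM21 and promoters from RefSeq GRCm38.p6.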

Additional observations from a re-analysis of the deposited data

How the results depend on the processing

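edgeR called 0 members, 0 partner genes and 0 of all genes with TMM, other scalings, other filters, each library left out and the replicate block, and limma-voom called 0 as well; their counts of all genes at an unadjusted p under 0.05 ran from 879 to 3017. DESeq2 called 570 of all genes, 145 higher and 425 lower, 1 member and 4 partner genes. In DESeq2 fits added after seeing the data, each without 1 library, it called 330, 1767 and 339 genes without control recipients 1, 2 and 3, and 241, 650 and 116 without Sept2C111A recipients 1, 2 and 3; members called ran from 0 to 2 and partner genes from 0 to 20 (9, 20 and 7, then 3, 9 and 0). The members' median ran from -0.22 to 0.43 (without control recipient 3) when a library was left out, and was 0.22 with limma-voom. Of 805 values of 62 named genes under 13 alternatives, 740 kept their direction and side of the threshold and 63, of 28 genes, reversed. Reversed log2 fold changes were 0.02 for Eng, 0.01 for Tgfbr2 and 0.03 for Id3 with upper-quartile factors, and 0.01 for Id3 with no filter. With limma-voom they were 0.15 for Tie1, 0.10 for Eng, 0.30 for Egfl7, 0.03 for Angpt1, 0.16 for Ly6c2, 0.31 for Plvap, 0.09 for Tgfbr2, -0.02 for Tgfbr1, 1.48 for Ccl21a, 0.20 for Ece1 and 0.12 for Adgrf5. With 1 library left out, the genes that reversed spanned these ranges: Cdh5 -0.83 to 0.18, Kdr -0.79 to 0.13, Tie1 -0.41 to 0.37, Eng -0.09 to 0.14, Egfl7 -0.38 to 0.49, Vegfa -0.80 to 0.27, Angpt1 -1.22 to 0.75, Angpt2 -0.33 to 0.73, Erg -0.02 to 0.40, Nos3 -0.02 to 0.60, Cldn5 -0.15 to 0.94, Esam -0.15 to 0.42, Icam2 -0.02 to 0.56, Ly6c2 -2.21 to 0.00, Dll4 -1.43 to 0.36, Plvap -0.39 to 0.54, Gpihbp1 -0.01 to 1.19, Svep1 -0.19 to 0.42, Tgfbr2 -0.21 to 0.31, Id3 -0.05 to 0.07, Tgfbr1 -0.05 to 0.12, Ets2 -0.64 to 0.18, Jag1 -0.50 to 0.23, Ccl21a -0.87 to 2.15, Ece1 -0.21 to 0.10, Vcam1 -0.28 to 0.06, Adgrf5 -0.61 to 0.52, Ly6e -0.02 to 0.34. The cause was not tested. Each group has 3 mice, and where nothing else is stated p-values measure the spread between these samples only.

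With the replicate number as a block, edgeR called 0 members and 1489 of all genes were past an unadjusted p of 0.05, the members' median was -0.02, and Tgfbr2 (0.04) and Ccl21a (0.56) reversed. The labels do not say whether the numbers pair the samples. Same-numbered libraries had correlations of their deviations of 0.00548, 0.15 and -0.166, and differently numbered ones ran from -0.214 to 0.161. With 3 libraries per group these correlations cannot settle whether the samples are paired.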
